A study of Homo sapiens with 6 samples.

Results

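Active enhancers and promoters are transcribed from both strands, and the short RNAs made at enhancers are degraded soon after synthesis, so they are best seen in assays of nascent RNA. Enhancers often lie in the sequence between genes, far from the start of the gene they act on, and a gene can be served by several of them. Precision run-on sequencing (PRO-seq) lets engaged RNA polymerases in permeabilized cells add a biotin-labelled nucleotide, and the labelled nascent RNA is then purified and sequenced. The classifier dREG scores positions by the shape of the run-on signal on both strands and calls peaks at active promoters and enhancers without using gene annotation.

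The regions described here are dREG peaks that overlapped no gene of GENCODE release 29 (GRCh38) and whose interval lay more than 10 kb and at most 50 kb from the nearest annotated transcript start of any gene. They are called distal intergenic peaks below. On chromosomes 1 to 22 and X there were 1484 among 24707 peaks of the PRO-seq 1M list, 3147 among 38177 peaks of the qPRO-seq 1M list and 773 among 15562 peaks of the qPRO-seq 250k list. All libraries came from untreated K562, an established human leukaemia line with erythroid features that the labels call lymphoblastoid, so the lists describe 1 cell line in 1 state. PRO-seq 1M used the published protocol with 3 affinity purifications, 1M permeabilized cells and 11 PCR cycles. The quick protocol with 1 purification was run on 1M cells with 11 cycles (qPRO-seq 1M) and on 250k cells with 14 cycles (qPRO-seq 250k). Each group had 2 biological replicates, at least 3 passages apart, and 1 deposited peak list, so replicate error could not be measured and groups were not tested against each other. The lists carry no read counts, so the depth behind each is unknown, and protocol, input and depth cannot be told apart. Intervals given with shares are Wilson 95% intervals and cover counting error only, since neighbouring peaks are not independent.

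A few of these regions have a reference sequence, because RefSeq (GRCh38.p14) places a gene start there that GENCODE 29 does not. The 6 windows below are the top-scored in qPRO-seq 1M among the RefSeq starts that obeyed the distance rule and had a peak in all 3 lists, and they are shown because they are the distal intergenic peaks for which a start, and so an orientation, is given. Each window runs from 250 bases before to 50 bases after the RefSeq start, 5′ to 3′ on the strand of the gene. Capitals mark matches, on either strand, to AGATAA (the GATA factor motif), TGANTCA (AP-1), CCACNCCC (KLF), CCGGAA (ETS), TATAAA (the TATA box), TGACGTCA (CRE) and GGGCGG (the GC box).
LOC107985767: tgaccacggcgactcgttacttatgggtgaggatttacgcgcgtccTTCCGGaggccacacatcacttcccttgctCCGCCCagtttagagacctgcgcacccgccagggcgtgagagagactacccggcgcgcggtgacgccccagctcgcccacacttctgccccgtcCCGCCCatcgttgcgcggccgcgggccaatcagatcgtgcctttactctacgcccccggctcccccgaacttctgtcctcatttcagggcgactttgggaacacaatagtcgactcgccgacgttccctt
LOC124903318: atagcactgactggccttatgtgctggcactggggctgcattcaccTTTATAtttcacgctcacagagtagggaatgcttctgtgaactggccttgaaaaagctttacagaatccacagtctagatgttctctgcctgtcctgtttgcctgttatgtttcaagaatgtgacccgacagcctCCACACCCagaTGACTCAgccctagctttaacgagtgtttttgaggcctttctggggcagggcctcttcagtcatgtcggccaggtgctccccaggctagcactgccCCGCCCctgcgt
LOC105377035: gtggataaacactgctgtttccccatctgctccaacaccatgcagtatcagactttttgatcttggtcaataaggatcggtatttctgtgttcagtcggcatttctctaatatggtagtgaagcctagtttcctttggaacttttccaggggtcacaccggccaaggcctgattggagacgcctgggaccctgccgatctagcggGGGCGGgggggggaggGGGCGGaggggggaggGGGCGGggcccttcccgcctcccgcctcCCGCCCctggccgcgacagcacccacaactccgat
LINC02917: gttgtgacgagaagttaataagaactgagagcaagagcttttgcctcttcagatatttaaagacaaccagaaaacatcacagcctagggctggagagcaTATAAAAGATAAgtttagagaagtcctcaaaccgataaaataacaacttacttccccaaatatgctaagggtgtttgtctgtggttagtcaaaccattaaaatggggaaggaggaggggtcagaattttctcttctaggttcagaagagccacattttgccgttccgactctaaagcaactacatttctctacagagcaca
DCT: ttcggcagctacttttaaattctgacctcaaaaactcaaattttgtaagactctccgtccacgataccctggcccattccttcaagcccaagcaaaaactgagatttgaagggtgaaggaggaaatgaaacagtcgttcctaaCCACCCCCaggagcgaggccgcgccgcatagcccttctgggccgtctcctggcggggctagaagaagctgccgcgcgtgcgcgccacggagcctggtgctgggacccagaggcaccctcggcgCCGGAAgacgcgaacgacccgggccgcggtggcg
LOC107986629: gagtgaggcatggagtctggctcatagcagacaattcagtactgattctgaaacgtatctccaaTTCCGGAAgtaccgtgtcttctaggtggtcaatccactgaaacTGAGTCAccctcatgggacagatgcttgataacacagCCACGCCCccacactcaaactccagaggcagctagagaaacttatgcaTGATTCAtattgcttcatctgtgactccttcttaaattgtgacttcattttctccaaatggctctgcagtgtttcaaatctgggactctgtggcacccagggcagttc
The first window, at the long noncoding RNA gene LOC107985767 (chr2:61764214-61764513, minus strand), had peak scores of 1.22 in PRO-seq 1M, 1.14 in qPRO-seq 1M and 1.14 in qPRO-seq 250k, on the authors' scale, which has no unit and is read within a list only. It held an ETS match and a pair of GC boxes. LOC124903318 (chr14:55103280-55103579, minus) scored 0.731, 1.06 and 0.786 in the same order and held AP-1, KLF, TATA and GC box matches. LOC105377035 (chr3:39177499-39177798, plus) scored 0.990, 0.991 and 0.713, and its 4 matches were all GC boxes. The centres of its peaks (39178000 to 39178010) lay outside the window in every list. LINC02917 (chr3:152205378-152205677, minus) scored 0.604, 0.978 and 0.698, had the lowest GC content of the 6 (40.3%), and carried a TATA match that runs into a GATA match. DCT (chr13:94549357-94549656, minus) encodes dopachrome tautomerase, an enzyme of melanin synthesis, and here a RefSeq start outside its GENCODE 29 model scored 0.781, 0.972 and 0.465. LOC107986629 (chr6:108738012-108738311, plus) scored 0.844, 0.952 and 0.420 and held a pair of AP-1 matches, a KLF match and an ETS match read on both strands. These matches are descriptions of letters in a window and not evidence of binding.

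The top-scored RefSeq start with a peak in qPRO-seq 1M alone was that of LOC105371325 (chr16:69522425-69522724, plus), with a score of 0.907 and a GC content of 38.7%. None of the 7 motifs matched in its window. The peak, chr16:69522701-69523140 with its centre at 69522970, lay mostly outside the window. The window therefore does not show the sequence under that peak.
LOC105371325: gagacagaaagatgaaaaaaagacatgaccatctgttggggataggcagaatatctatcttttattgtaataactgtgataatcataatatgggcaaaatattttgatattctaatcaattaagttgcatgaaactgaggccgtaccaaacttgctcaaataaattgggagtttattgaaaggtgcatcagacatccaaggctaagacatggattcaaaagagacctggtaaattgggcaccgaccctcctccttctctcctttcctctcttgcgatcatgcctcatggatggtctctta

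As a share of all peaks called, distal intergenic peaks came to 8.24% (7.97 to 8.52) for qPRO-seq 1M. PRO-seq 1M had 6.01% (5.72 to 6.31), and the lowest share was that of qPRO-seq 250k, 4.97% (4.64 to 5.32). The qPRO-seq 1M share was higher than the PRO-seq 1M share by 2.24 percentage points and higher than the qPRO-seq 250k share by 3.28 points. Each group has 1 list, so these differences were not tested. With every list reduced to its top-scored peaks at the size of the smallest, the qPRO-seq 1M share was still the highest (6.93%), while that of PRO-seq 1M (4.90%) was below that of qPRO-seq 250k (4.97%). The number of distal intergenic peaks in qPRO-seq 1M was 2.12 times that in PRO-seq 1M, while all peaks were 1.55 times as many and peaks within 500 bp of an annotated start 1.23 times as many. Against qPRO-seq 250k the ratios were 4.07 for distal intergenic peaks, 2.45 for all peaks and 1.81 for peaks near starts. Intergenic peaks within 10 kb of a start had ratios of 2.05 and 3.79 in the same order, and those beyond 50 kb had 2.27 and 4.18. Here and below, intergenic peaks within 10 kb leave out those within 500 bp of a start, which count as peaks near starts.

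The peaks were short, with a median width of 410 bp in both 1M lists and 400 bp in qPRO-seq 250k, and together covered 0.653, 1.39 and 0.325 Mb (PRO-seq 1M, qPRO-seq 1M, qPRO-seq 250k). Their median scores were 0.524, 0.503 and 0.507, below the medians of peaks near starts in the same lists (0.696, 0.624 and 0.599). In the top score decile of their list were 66 (4.45%), 227 (7.21%) and 49 (6.34%) of them, and in the bottom decile 15.4%, 12.9% and 12.0%, where a decile holds 10% of all peaks. In qPRO-seq 1M the 245 intergenic peaks at 9 to 10 kb had a median score of 0.521 and the 225 at 10 to 11 kb 0.552. At the outer limit, 30 peaks at 49 to 50 kb had a median of 0.549 and 19 at 50 to 51 kb 0.494. The other lists had too few peaks there to compare, with 12 and 17 in PRO-seq 1M and 7 and 4 in qPRO-seq 250k.

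Most distal intergenic peaks of the shorter lists were found again in the longest one. A qPRO-seq 1M peak overlapped 1303 of the 1484 PRO-seq 1M distal intergenic peaks by at least 1 bp, which is 87.8% (86.0 to 89.4), against 90.6% of all PRO-seq 1M peaks. It overlapped 95.6% (93.9 to 96.8) of those of qPRO-seq 250k, against 96.6% of all peaks of that list. A PRO-seq 1M peak overlapped 84.6% (81.9 to 87.0) of the qPRO-seq 250k distal intergenic peaks, against 91.2% of all. In the other direction the shares were lower: a PRO-seq 1M peak overlapped 44.2% (42.5 to 45.9) of the qPRO-seq 1M distal intergenic peaks, against 63.3% of all qPRO-seq 1M peaks. A qPRO-seq 250k peak overlapped 25.1% (23.7 to 26.7) of them, against 44.1% of all, and 44.8% (42.3 to 47.4) of those of PRO-seq 1M, against 60.2% of all.

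**Figure D1:**
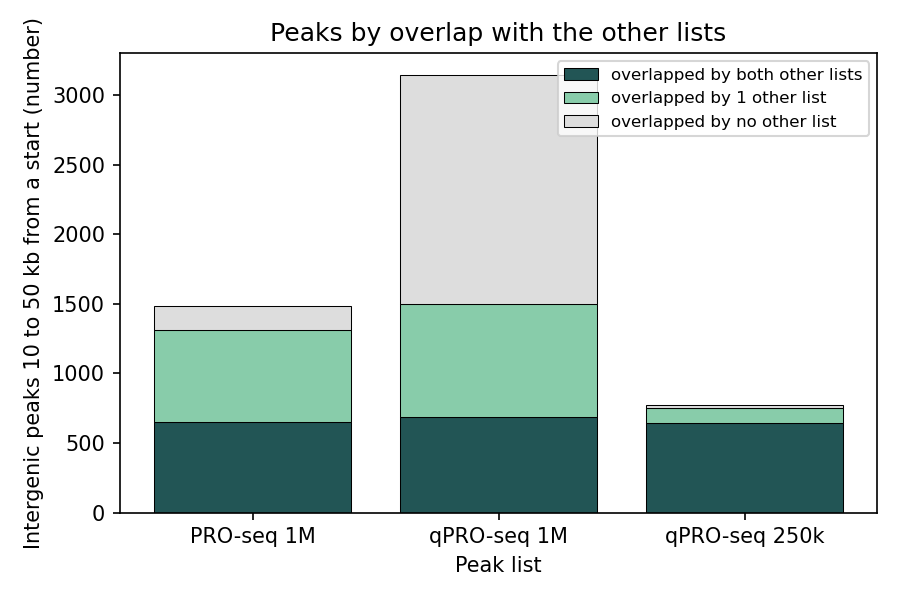
Number of distal intergenic peaks (vertical axis) in each of the 3 lists (horizontal axis), split by whether a peak of both, 1 or no other list overlaps them. In qPRO-seq 1M, 1650 of 3147 had no overlapping peak in another list, against 168 of 1484 in PRO-seq 1M and 23 of 773 in qPRO-seq 250k. After joining overlapping peaks, 52.9% of distal intergenic regions and 37.2% of all regions were in qPRO-seq 1M alone. For PRO-seq 1M alone the shares were 5.37% and 6.07%, and for qPRO-seq 250k alone 0.740% and 1.04%.

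Peaks without a counterpart were the weaker and narrower ones. In qPRO-seq 1M the 1650 peaks (52.4%) that no other list overlapped had a median score of 0.412 and a median width of 360 bp. The 812 overlapped by 1 other list had medians of 0.565 and 440 bp, and the 685 overlapped by both had 0.807 and 540 bp. The order was the same in PRO-seq 1M (0.387, 0.456 and 0.688) and in qPRO-seq 250k (0.363, 0.421 and 0.544). Where a distal intergenic peak of PRO-seq 1M matched exactly 1 qPRO-seq 1M peak and the reverse, the centres were a median of 30 bp apart over 985 pairs, and the median widths were 420 bp and 510 bp. When the distal intergenic peaks of all 3 lists were joined wherever they overlapped, 3107 regions resulted. Of these, 1644 (52.9%) had a peak in qPRO-seq 1M alone, 602 (19.4%) in both 1M lists, 569 (18.3%) in all 3 lists and 167 (5.37%) in PRO-seq 1M alone. Over all peaks joined in the same way, 37.2% of 33701 regions were in qPRO-seq 1M alone, 18.1% in both 1M lists, 34.6% in all 3 lists and 6.07% in PRO-seq 1M alone.

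The score of a peak went with its recurrence. For distal intergenic peaks of qPRO-seq 1M, recurrence in PRO-seq 1M was 13.8% (10.8 to 17.4) in the lowest score decile of the list and 96.0% (92.6 to 97.9) in the highest. The share overlapped by qPRO-seq 250k went from 3.44% (2.06 to 5.69) to 84.6% (79.3 to 88.7). All 66 PRO-seq 1M distal intergenic peaks in the highest decile were overlapped by qPRO-seq 1M, against 160 of 228 in the lowest. For PRO-seq 1M intergenic peaks within 10 kb of a start, the counts were 74 of 74 and 172 of 241. Those of qPRO-seq 1M went from 18.8% to 96.4% by PRO-seq 1M and from 6.94% to 86.7% by qPRO-seq 250k. The rise with score was therefore not particular to distal intergenic peaks.

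**Figure D2:**
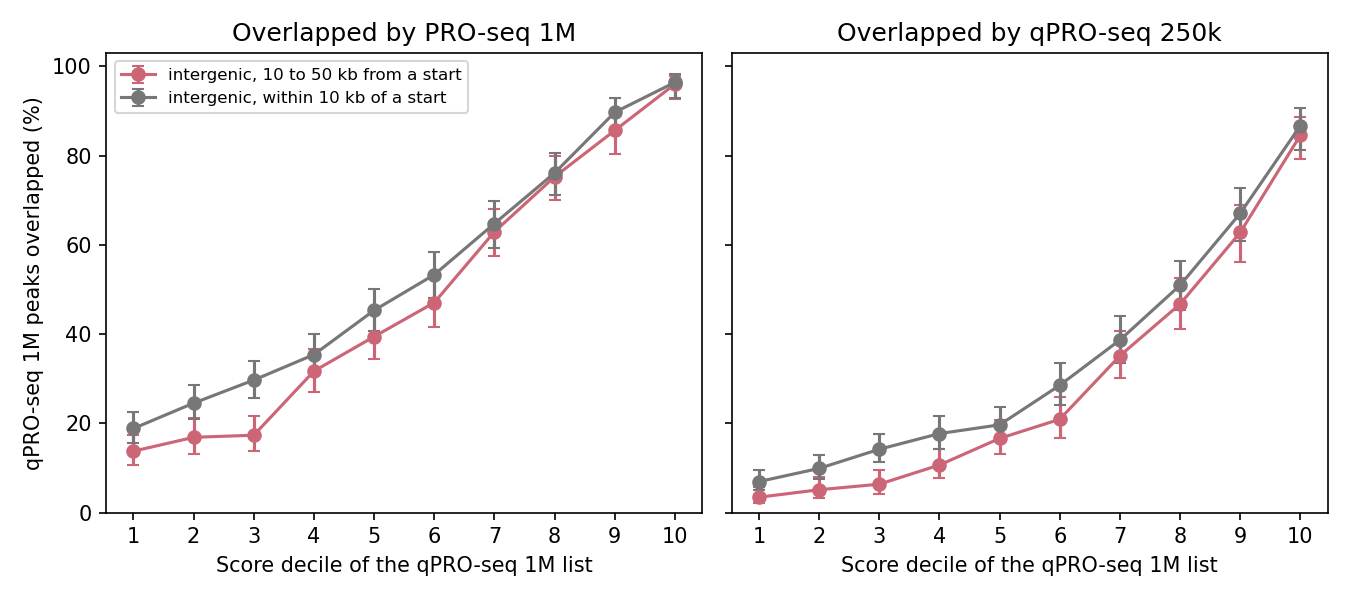
Share of qPRO-seq 1M intergenic peaks overlapped by PRO-seq 1M (left) and by qPRO-seq 250k (right), in percent, by score decile of that list (1 is lowest), with Wilson 95% intervals. Distal intergenic peaks go from 13.8% to 96.0% on the left and from 3.44% to 84.6% on the right, and lie below intergenic peaks within 10 kb of a start in the low deciles.

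At the same score, distal intergenic peaks of qPRO-seq 1M were overlapped less often than intergenic peaks within 10 kb of a start. Averaged over score deciles, the difference was −5.09 points (−7.08 to −3.05) for overlap by PRO-seq 1M and −4.88 points (−6.67 to −3.05) for overlap by qPRO-seq 250k. Both were smaller without the adjustment for score, −2.39 (−4.75 to −0.0271) and −2.41 points (−4.49 to −0.310), and when peaks were matched by centres within 100 bp, −2.42 and −2.68 points. With every list reduced to its top-scored peaks at the size of the smallest list, the second difference was −3.31 points and its interval (−7.10 to 0.536) included 0. Peaks of PRO-seq 1M showed a difference of −0.862 points (−3.06 to 1.25) for overlap by qPRO-seq 1M, which the counting error does not separate from 0. That value turned with the setting, to 5.27 points (1.39 to 9.01) at the size of the smallest list and 4.81 points (1.06 to 8.47) with scores at or above the list median. Peaks of qPRO-seq 250k had differences of 0.810 points (−2.58 to 4.05) for overlap by PRO-seq 1M and 1.47 points (−0.945 to 3.70) for overlap by qPRO-seq 1M, and the latter was 8.94 points (5.01 to 12.6) at the size of the smallest list. Against intergenic peaks beyond 50 kb, the qPRO-seq 1M difference for overlap by PRO-seq 1M was 2.89 points (−0.269 to 5.88). Against peaks near starts at the same score it was −30.0 points (−31.6 to −28.4).

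The density of distal intergenic peaks fell with distance from the nearest start. Gene-free sequence at these distances came to 501.7 Mb, and held 6.27 peaks per Mb in qPRO-seq 1M (exact Poisson 95% interval 6.06 to 6.496). The density was 2.96 per Mb (2.81 to 3.11) for PRO-seq 1M, and 1.54 per Mb (1.43 to 1.65) for the 250k list. Intergenic sequence within 10 kb of a start held 12.4, 6.07 and 3.28 per Mb in that order. At 10 to 15 kb the density was 4.29, 8.67 and 2.38 per Mb (the 1M list of the published protocol first, then both quick lists by falling input), and at 45 to 50 kb it was 1.64, 3.66 and 0.794 per Mb. The first of these exceeded the last 2.61-fold (1.98 to 3.49), 2.37-fold (1.97 to 2.87) and 3.00-fold (2.03 to 4.60) for the 3 lists in the same order as before. The median distance was 19.0, 19.6 and 18.2 kb, against 23.6 kb for the sequence itself. Median score changed little over the same bins, from 0.514 at 10 to 15 kb to 0.538 at 45 to 50 kb in qPRO-seq 1M.

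**Figure D3:**
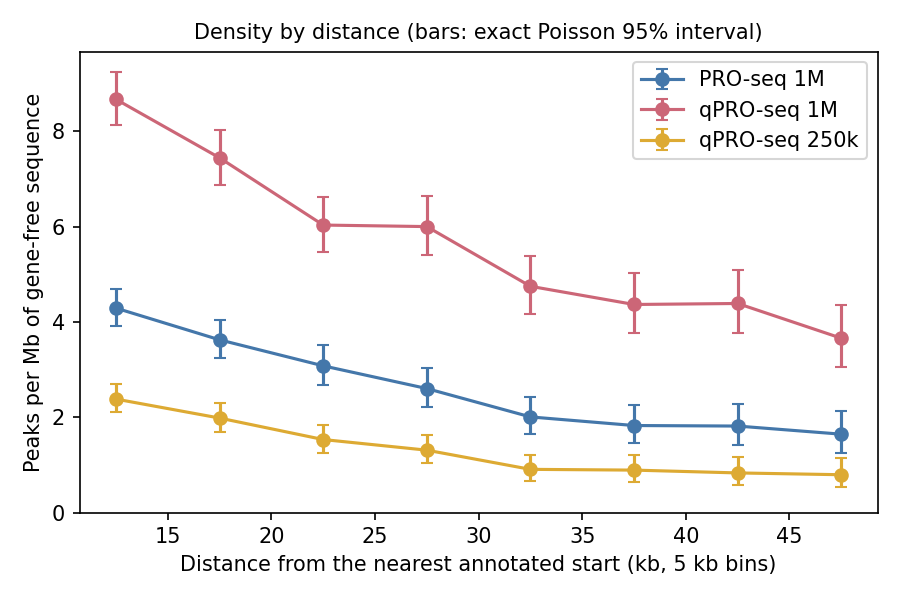
Distal intergenic peaks per Mb of gene-free sequence (vertical axis) in 5 kb bins of distance from the nearest annotated start (horizontal axis, kb) for the 3 lists, with exact Poisson 95% intervals. Density falls from 8.67 to 3.66 per Mb in qPRO-seq 1M and from 4.29 to 1.64 per Mb in PRO-seq 1M.

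The gene with the nearest start was more often protein-coding than the sequence would give: 40.0% of PRO-seq 1M, 38.1% of qPRO-seq 1M and 40.4% of qPRO-seq 250k distal intergenic peaks, against 26.6% of the gene-free sequence at the same distances. Pseudogenes were nearest for 24%, 24.6% and 25.1% of peaks, against 33.0% of the sequence. The nearest gene had a dREG peak at its own start for 33.6% (31.2 to 36.0), 34.0% (32.3 to 35.6) and 26.9% (23.9 to 30.1) of peaks, against 14.2%, 16.0% and 11.2% of the sequence. Peaks lay upstream of the nearest start in 55.5%, 58.2% and 57.4% of cases, and 55.3% of the sequence does. The nearest start names a neighbour only, not the gene a region acts on.

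Among genes that matter in erythroid and leukaemic cells, the members of 5 lists were examined for distal intergenic peaks nearest to their start. Over all 7834 protein-coding genes with gene-free sequence at these distances nearest to them, 773 (9.87%) had such a peak in qPRO-seq 1M, at 8.98 peaks per Mb (8.48 to 9.51). Genes with a dREG peak at their start in that list had 12.9 per Mb, and those without 5.72 per Mb. Of the immediate-early genes, which respond fast to growth signals and stress, 4 of 10 had such a peak in qPRO-seq 1M, at 88 per Mb (51.3 to 141), and without IER5, left out after its values were seen, the density was 69.7 per Mb (33.4 to 128). The erythroid and blood transcription factors had 6 of 16 genes and 26.6 per Mb (12.8 to 49), the growth signalling and survival genes 2 of 12 and 29.8 per Mb (10.9 to 64.9), the heme and iron genes 2 of 12 and 22.4 per Mb (6.11 to 57.4), and the red cell membrane and globin genes 1 of 5 and 26.2 per Mb (5.41 to 76.6). The cytosolic ribosomal protein genes, for comparison, had 0 of 7, which allows up to 42.1 per Mb. These lists are small, and most of their genes have little or no gene-free sequence at these distances. Some of their peaks are neighbours with a gap of only 20 bp, as at MYC and IER5. The red cell value rests on 3 such neighbours at GYPC. The Poisson intervals take peaks as independent and may thus be too narrow.

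IER5, an immediate-early gene of the stress response, had 7 qPRO-seq 1M distal intergenic peaks nearest to its start, all downstream, at 15.4 to 41.0 kb, with 4 in PRO-seq 1M and 3 in qPRO-seq 250k. The strongest, chr1:181129671-181130580, scored 1.16, and its counterparts scored 1.05 in PRO-seq 1M and 1.10 in qPRO-seq 250k. FOSL2, which encodes an AP-1 subunit, had 4, 1 and 1 peaks (qPRO-seq 1M, PRO-seq 1M, qPRO-seq 250k). Of the 4, 2 lay at RefSeq starts of the long noncoding RNA gene LOC105374382, which are nearer to them than FOSL2. The one found in all 3 lists, chr2:28366561-28367080, lay 25.4 kb upstream and scored 1.08, 0.629 and 0.364 in that order. MYC, a driver of cell growth, had 4, 2 and 1 peaks downstream, of which the strongest scored 0.882, 1.02 and 0.694.

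LMO2, which encodes a bridging protein of the GATA1 and TAL1 complex, had 4, 1 and 2 peaks, and the strongest, chr11:33937261-33937930 at 45 kb upstream, scored 1.05 in qPRO-seq 1M, 0.752 in PRO-seq 1M and 0.779 in qPRO-seq 250k. MYB, a transcription factor of blood progenitors, had 2, 1 and 0 peaks, the stronger at chr6:135147551-135148100, 33.2 kb upstream, with scores of 0.870 and 0.561 in the 1M lists. Of all qPRO-seq 1M distal intergenic peaks, 2356 of 3147 had no qPRO-seq 250k counterpart. Over all peaks of the qPRO-seq 1M list, 16850 of 38177 (44.1%) had one, against 25.1% of the distal intergenic peaks.

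PIM1, a survival kinase induced by STAT5, had 3, 2 and 2 peaks, the strongest at chr6:37182801-37183830 with scores of 1.04, 0.707 and 0.418. SOCS2, a feedback inhibitor of cytokine signalling, had 3, 2 and 1, the strongest at chr12:93591281-93592020 with scores of 1.02, 0.982 and 0.830. GYPC, which encodes the membrane sialoglycoprotein glycophorin C, had 3, 2 and 2 peaks within 10.2 to 11.0 kb upstream, with top scores of 0.758, 0.804 and 0.422. The mitochondrial iron importer SLC25A37 and the transferrin receptor TFRC each had 2, 1 and 0 peaks. Over all protein-coding genes with such sequence, 9.87% had a distal intergenic peak in qPRO-seq 1M and 2.96% in qPRO-seq 250k, so a count of 0 in the latter is common.

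The 5 top-scored qPRO-seq 1M distal intergenic peaks with counterparts in both other lists lay on 5 chromosomes. The highest, chr11:9363921-9364780, lay 19.8 kb upstream of IPO7, a nuclear import receptor gene, and scored 1.43, against 1.22 in PRO-seq 1M and 1.19 in qPRO-seq 250k. The next, chr1:181152721-181153510, lay 21.0 kb upstream of the noncoding gene LINC01732 and scored 1.38, 1.28 and 1.11 in the same order. The third, chr5:85647391-85648190, 15 kb upstream of AC010595.1, scored 1.33, 0.971 and 0.757. The others were chr3:9862571-9863170 near CIDEC, a lipid droplet protein gene, with 1.31, 1.31 and 0.795, and chr18:9898721-9899480 near TXNDC2 with 1.31, 1.25 and 1.03. None of the 5 overlapped a RefSeq gene.

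The top-scored peaks found in 1 list alone were also examined. In qPRO-seq 1M, chr7:159197241-159197860 near the pseudogene PIP5K1P2 scored 1.11, with the nearest PRO-seq 1M peak 166130 bp away, and chr2:9830281-9830730, 12.6 kb upstream of TAF1B, scored 1.10. In PRO-seq 1M the scores were 0.754 for chr10:32139371-32139670 and 0.733 for chr1:151473251-151473580 near POGZ. In qPRO-seq 250k they were 0.588 for chr6:95518421-95518720 and 0.446 for chr6:15907211-15907500, and the first of these had a PRO-seq 1M peak 250 bp away. The widest peaks were chr11:59545051-59546170 in PRO-seq 1M (1120 bp), chr1:69551271-69552520 near LRRC7 in qPRO-seq 1M (1250 bp) and chr11:134001991-134002880 in qPRO-seq 250k (890 bp), and each was overlapped by both other lists. The widest of PRO-seq 1M and of qPRO-seq 1M overlapped the RefSeq long noncoding RNA genes LOC102723575 and LOC105378789, respectively. That of qPRO-seq 250k overlapped no RefSeq gene.

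Part of these peaks lay at genes, or parts of genes, that RefSeq places outside the GENCODE 29 gene models. A RefSeq gene was overlapped by 372 (25.1%) of the PRO-seq 1M, 675 (21.4%) of the qPRO-seq 1M and 216 (27.9%) of the qPRO-seq 250k distal intergenic peaks. The word intergenic therefore holds for the GENCODE annotation only. Transfer RNA genes, which RNA polymerase III transcribes, were overlapped by 62, 73 and 56 peaks. The window at a RefSeq start was overlapped by 59, 76 and 29, and 1107, 2466 and 555 peaks had neither a RefSeq gene nor such a window.

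Peaks at tRNA genes recurred more than the others. Of the qPRO-seq 1M distal intergenic peaks at tRNA genes, PRO-seq 1M overlapped 89.0% (79.8 to 94.3) and qPRO-seq 250k 80.8% (70.3 to 88.2). Peaks with neither a RefSeq gene nor a RefSeq start were overlapped at 42.2% and 23.1%, so the differences were 46.8 points (37.4 to 52.5) and 57.7 points (47.1 to 65.3). The tRNA peaks also scored higher, with a median of 0.732 against 0.495. Peaks at RefSeq starts were overlapped at 73.7% by PRO-seq 1M and 38.2% by qPRO-seq 250k.

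Counted from the genes, 111 of 443 RefSeq tRNA genes obeyed the distance rule, and a qPRO-seq 1M peak lay at 74 of them (66.7%, 57.5 to 74.7). PRO-seq 1M marked 64 (57.7%, 48.4 to 66.4), and 59 (53.2%, 43.9 to 62.2) were marked at the lower input. All 3 lists had a peak at 55 of them and no list at 36. At the size of the smallest list, the shares were 42.3% in PRO-seq 1M and 41.4% in qPRO-seq 1M, below the 53.2% of qPRO-seq 250k, so the order of the lists turned. Chromosome 6 held 61 of the 111, with peaks at 29, 31 and 26. Threonine tRNA genes had peaks at 7, 7 and 6 of 7 and isoleucine at 7, 7 and 6 of 8, whereas alanine tRNA genes had peaks at 1, 2 and 2 of 15. Many of the alanine genes without a peak lay in chr6:28543114-28823389. In that stretch no tRNA gene obeying the rule, of any amino acid, had a peak in any list. Amino acid and position were not separated here. Near-identical tRNA copies cannot always be separated by reads of 37 nt, so the copy that carries a peak is uncertain.

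RefSeq starts of other genes were seldom marked. Of 1640 starts that obeyed the rule, 67 (4.09%) had a peak in PRO-seq 1M, 88 (5.37%) in qPRO-seq 1M and 32 (1.95%) in qPRO-seq 250k. Any list had a peak at 94, of which 85 were of long noncoding RNA genes and 9 of protein-coding genes. Some of these peaks, as at DCT, also cover a tRNA gene. These 94 windows, of the kind printed above, had a median GC content of 58.2%, against 46.3% in the 1546 without a peak and 58.7% over all 34961 RefSeq starts. The GC box was in 43.6% of the windows with a peak and 11.7% of those without, a difference of 31.9 points (22.2 to 42.1), and in 45% of all starts. The ETS motif was in 16.0%, 4.98% and 17.3%, and the KLF motif in 18.1%, 9.25% and 17.2%, in the same order. The GATA motif was in 16.0%, 18.3% and 10.3% and AP-1 in 12.8%, 12.4% and 7.68%, so neither differed beyond counting error between windows with and without a peak. Since GC-rich motifs are likelier in GC-rich windows, the motif shares and the GC content are not separate results.

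**Figure D4:**
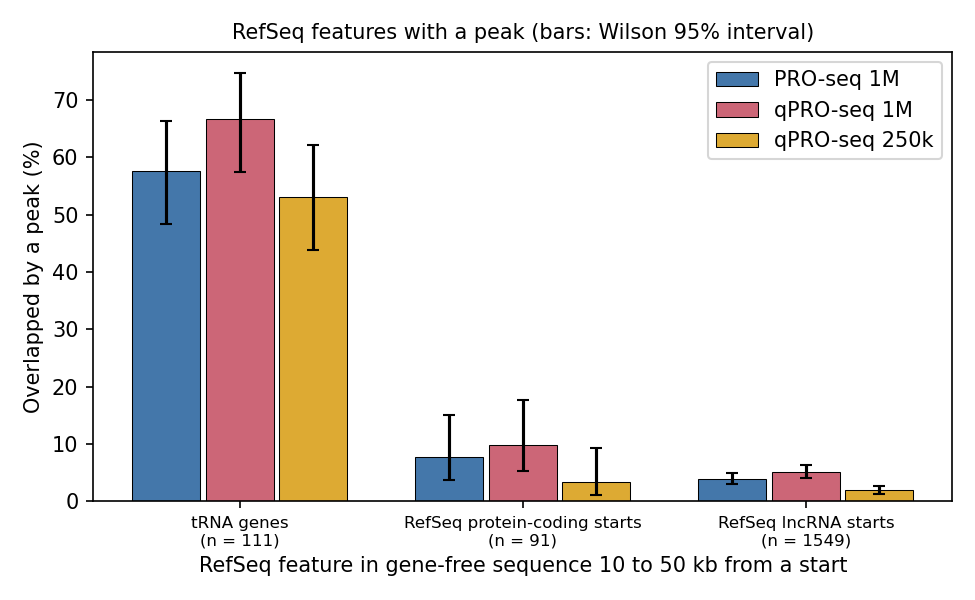
Share of RefSeq tRNA genes (111), protein-coding starts (91) and long noncoding RNA starts (1549) in gene-free sequence 10 to 50 kb from an annotated start that a peak overlaps, in percent, for the 3 lists, with Wilson 95% intervals. The tRNA genes stand at 53.2% to 66.7%, and the starts of both other kinds below 10%.

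The spacing of distal intergenic peaks was next measured. In qPRO-seq 1M the median gap to the next peak of any kind was 6150 bp, in PRO-seq 1M 10335 bp and in qPRO-seq 250k 16890 bp. A gap of 20 bp was found for 23.1%, 20.8% and 18.0% of them, fewer than for peaks near starts (55.5%, 49.5% and 30.5%), while intergenic peaks within 10 kb had 29.2%, 24.8% and 16.9%. Joined across gaps no longer than the one commonly used to stitch enhancers into super-enhancers, they formed 2091, 1069 and 593 clusters, of which 238, 92 and 42 had at least 3 peaks and held 29.2%, 22.1% and 19.1% of the peaks. Single peaks made up 47.0%, 53.8% and 61.7%. The cluster with most peaks in qPRO-seq 1M, chr6:28474361-28492200, had 13, of which 3 were at tRNA genes and 9 were overlapped by both other lists. The next, chr6:27157711-27194830, had 10, of which 3 were at tRNA genes, and the third, chr9:129391131-129414050, had 9, none at a RefSeq gene and 2 overlapped by both other lists.

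Chromosomes differed in density. In qPRO-seq 1M chromosome 19 had the highest value, 13.8 per Mb (10.9 to 17.3, 77 peaks), followed by chromosomes 1 (9.32), 6 (9.21) and 20 (9.17), and the lowest were chromosomes X (2.77), 13 (3.00) and 4 (3.80). Apart from chromosomes 19 and 1, the intervals of neighbours in this order overlapped. Chromosome 19 was highest and X lowest in PRO-seq 1M (7.90 and 1.20) and in qPRO-seq 250k (4.31 and 0.575) as well. As a share of all peaks of the chromosome the order of this pair was the reverse: 3.41% on chromosome 19 and 9.41% on X in qPRO-seq 1M, 2.60% and 6.34% in PRO-seq 1M, and 2.31% and 5.03% in qPRO-seq 250k. Chromosome 6 had the highest such share in each list, 12.2%, 10.5% and 9.32% in that order. Next was chromosome 18, with 11.9%, 9.37% and 7.82%. Chromosome 6 also held 61 of the 111 tRNA genes that obeyed the distance rule, with peaks at 31, 29 and 26 of them. Its rank without peaks at tRNA genes was not tested.

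**Figure D5:**
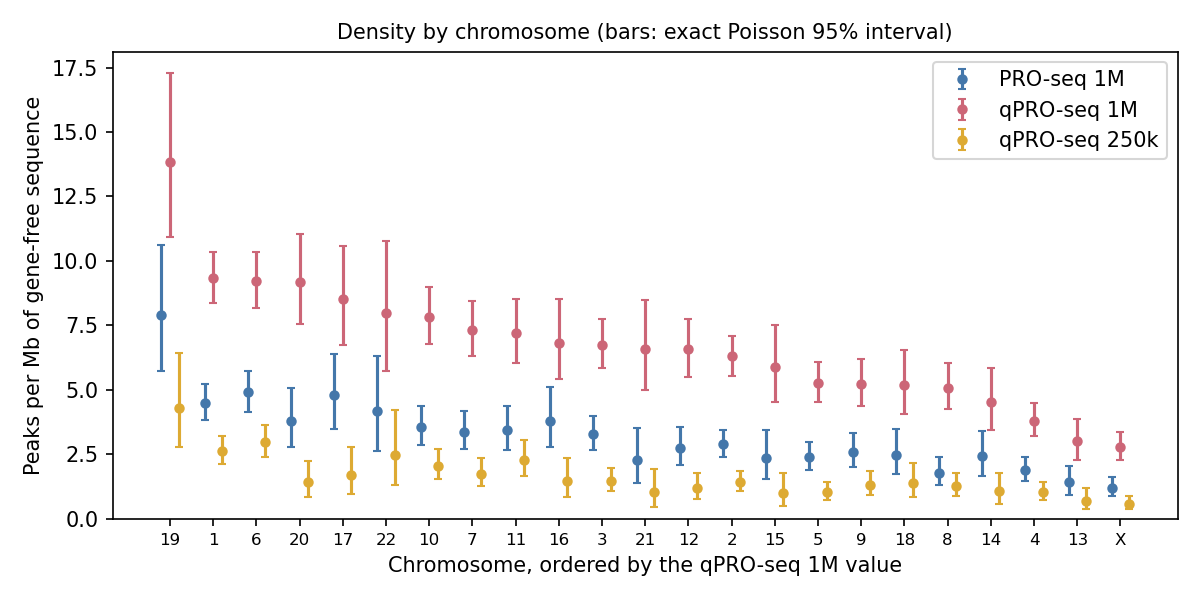
Distal intergenic peaks per Mb of gene-free sequence (vertical axis) on each chromosome (horizontal axis, ordered by the qPRO-seq 1M value) for the 3 lists, with exact Poisson 95% intervals. Chromosome 19 is highest and X lowest in every list, at 13.8 and 2.77 per Mb in qPRO-seq 1M, an order that reverses for the share of the chromosome's peaks (3.41% and 9.41%).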

How the data were processed

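Run-on libraries of untreated K562 were measured in 3 groups of 2 replicates. Per the submitters' processing notes, the tools were fastp 0.20.0, UMI-tools, Bowtie2 2.3.5.1 and deepTools 3.1.3, on build GRCh38. The score and the p-value of each peak are as the authors deposited them. How replicates were pooled and the version and thresholds of dREG are not given in the sources used here. Groups were taken from the sample titles, and each list was matched to its group by name.

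Genes and transcript starts came from GENCODE 29 and RefSeq genes and start windows from GRCh38.p14. Starts of intervals, which count from 0 in the lists, are printed from 1. Distance ran from the nearest edge of a peak, overlap was at least 1 bp, and gene-free sequence was counted on a grid of 10 bp up to the last gene or peak of each chromosome. Score-adjusted differences are averages over score deciles of the list, weighted by the number of distal intergenic peaks. Python 3.11.15, pandas 2.3.3 and SciPy 1.17.1 were used, and the counting was tested on simulated peaks. Depth is unknown, so precision is given as Wilson, Newcombe and exact Poisson 95% intervals.

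Regions named in the text were the 5 top-scored shared peaks of qPRO-seq 1M, the 2 top-scored peaks in 1 list alone, the widest of each list, the 3 largest clusters of qPRO-seq 1M and, per gene list, the 3 genes with most peaks, of which 1 is not reported here. The class of peaks and the gene lists were chosen with earlier results of these data known. Sequence features of whole peaks were planned, but no genome sequence was used here, so sequence was read at RefSeq starts only, a choice made after seeing the data.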

Additional observations from a re-analysis of the deposited data

How the results depend on the processing

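The main results were recomputed 129 times under other settings. A share or ratio was held to have stayed when inside the reported interval, a count when within 1.5 times, a difference separated from 0 when it kept its sign and separation, and any other difference when its interval still included 0, whatever its sign. By these criteria 75 values stayed and 52 moved. Among the 52 were 2 differences that gained separation from 0 with the opposite sign. Of the rest, 1 difference lost separation from 0 and 1 gained it with the same sign. No difference that had been separated from 0 changed sign. No paired analysis was possible because the lists carry no replicate numbers, each group has 1 list and no test was made, and for the same reason no replicate could be left out. The alternatives for sequence features were not run. With p at most 0.01, the share in PRO-seq 1M was 5.63%. With peaks within 500 bp merged, the shares were 7.36%, 10.3% and 5.51% (PRO-seq 1M, qPRO-seq 1M, qPRO-seq 250k), overlap of qPRO-seq 1M by PRO-seq 1M was 41.4%, and 19.9% of joined regions were in all 3 lists. At the size of the smallest list, PRO-seq 1M had 762 (4.90%) and qPRO-seq 1M 1079 (6.93%) distal intergenic peaks. In overlap, qPRO-seq 1M then reached 79.7% of PRO-seq 1M; the other shares were 56.3% of qPRO-seq 1M by PRO-seq 1M, 54.2% of it by the 250k list, and 77.1% of the 250k list by it. The differences from intergenic peaks within 10 kb were 5.27 points (PRO-seq 1M by qPRO-seq 1M), −3.31 points (qPRO-seq 1M by qPRO-seq 250k) and 8.94 points (qPRO-seq 250k by qPRO-seq 1M, reported as 1.47), and 31.7% of joined regions were in all 3 lists and 26% in qPRO-seq 1M alone. With scores at or above the list median, the counts were 528, 1360 and 308 (4.27%, 7.12% and 3.96%), the overlaps in the same order 91.9%, 37.1%, 23.5% and 97.7%, the first difference 4.81 points, and the joined shares 16.6% and 58.4%. With protein-coding genes and starts only, PRO-seq 1M had 2244 and qPRO-seq 250k 1221, the shares were 9.08%, 11.1% and 7.85%, qPRO-seq 1M overlaps 50.0% and 30.4%, and joined shares 22.4% and 48.1%. When overlap had to cover at least 50% of each peak, the 4 shares became 78.6%, 37.0%, 20.3% and 83.1%. Matching by centres no more than 100 bp apart, they became 74.4%, 35.0%, 19.9% and 81.4%. The reported differences of −5.09 and −4.88 points became −2.39 and −2.41 without score adjustment, and −2.42 and −2.68 by centres. Without peaks at RefSeq genes or starts, chosen after seeing the data, the shares were 4.48%, 6.46% and 3.57%, and the qPRO-seq 1M overlaps 42.2% and 23.1%. The share was highest in qPRO-seq 1M under each of these settings, and lowest in qPRO-seq 250k except at the size of the smallest list, where PRO-seq 1M (4.90%) was below it (4.97%). The cause of these movements was not tested. Of the 14 single regions named, 8 of qPRO-seq 1M and 3 of each other list, protein-coding annotation alone kept 5, 2 in PRO-seq 1M and 1 in qPRO-seq 250k.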

Other observations

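The following were singled out after their values were seen. KLF6, an immediate-early zinc finger gene, had 3 distal intergenic peaks nearest to its start in PRO-seq 1M, 2 in qPRO-seq 1M and 3 in qPRO-seq 250k, so the longest list had the fewest. The 2 of qPRO-seq 1M lay close together, at 18.1 to 18.5 kb, and were overlapped by both other lists. Whether the counts differ only in how a short stretch was split into peaks was not tested. A cluster between DDIT4-AS1 and DNAJB12, chr10:72297271-72321570, was the largest of qPRO-seq 250k with 6 peaks and a top score of 1.21, and the matching cluster of qPRO-seq 1M had 8. A cluster near LINC01816, chr2:70135721-70149650, had 8 peaks in qPRO-seq 1M, 7 of them overlapped by both other lists. Among tRNA genes obeying the distance rule, valine genes had peaks at 7, 9 and 6 of 10 (PRO-seq 1M, qPRO-seq 1M, qPRO-seq 250k) and phenylalanine genes at 1, 1 and 1 of 5. The phenylalanine genes without a peak all lay at chr6:28763597-28823389, within the stretch where no such tRNA gene of any amino acid had a peak. The low count is therefore not separated from that position.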
